A study of Homo sapiens with 3 samples.

Results

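The AP-1 transcription factor genes FOS, FOSB, FOSL1, FOSL2, JUN, JUNB, JUND, ATF3, BATF and BATF3 were followed in PANC-1 cells left as control or given cantharidin or okadaic acid. Members were taken by gene symbol after the transcript accession of each array probe had been matched to RefSeq, a step that used no measured value. The choice of which genes to follow, however, was made with earlier results of these data known. All 10 genes were found among the 19699 named genes of the array. ATF3 was read by 4 probes and each of the other 9 genes by 1 probe, which made 13 probes in all, and each of them was a single spot.

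AP-1 is a dimer of basic leucine zipper (bZIP) proteins. FOS proteins cannot pair with each other and bind DNA with a JUN partner, JUN proteins can also pair among themselves, and ATF3 and the BATF proteins pair with JUN proteins and shift which sites and which target genes the dimer serves. The dimers bind a short DNA element named TRE and its one-base-longer relative named CRE. FOS, FOSB, JUN, JUNB and ATF3 are immediate early genes, whose mRNAs appear soon after growth factors, cytokines or stress without new protein synthesis and are usually short-lived. The ERK and JNK kinases drive both their transcription and the activity of their proteins, and serine/threonine phosphatases oppose these kinases.

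PANC-1 is an established human pancreatic carcinoma line. Total RNA from each group was labelled with Cy3 and hybridised to 1 Agilent one-colour expression array. The labels give 20 µM and 24 h for each agent, cantharidin or okadaic acid, which was not checked further, and the control cells are labelled only as untreated, with no vehicle named. Both agents inhibit serine/threonine phosphatases, PP2A foremost, and the comparisons ask how the transcripts of PANC-1 cells differ after each of them. With 1 array per group no difference had a replicate check, and no test and no p-value was computed. The error printed after ± is technical spot noise within the arrays, as SD on the log2 scale, and does not cover differences between cultures.

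The arrays held 34041 probes with a value on all 3 arrays, of which 23071 to 25103 per array were well above background and none was saturated. Probes with 10 spots had a median SD between spots of 0.0733 to 0.101 on the log2 scale. Of 6 epithelial markers 5 or 6 were well above background on each array, and they did not move together. KRT18, a keratin of simple epithelia, had an intensity of 70664 in control, 127869 under cantharidin and 193320 under okadaic acid, while the adhesion protein gene EPCAM had 1286, 342 and 698. CDH1, the epithelial cadherin, was well above background only in control, at an intensity of 167. Vimentin (VIM), a filament of mesenchymal cells that PANC-1 also makes, was at 236756 to 311685. Of the 16 measured markers of leukocytes, endothelium, fibroblasts, acinar cells and islets, 11 or 12 were well above background on each array and 4 on none (PECAM1 of endothelium, LUM of fibroblasts, CPA1 of acini and SST of islets). CD14, a monocyte receptor, was at 2535 in control, 1838 under cantharidin and 11044 under okadaic acid, and the part of other cells in the AP-1 values was not tested.

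The sequence upstream of the annotated start is shown for 5 promoters, because FOS, FOSB and ATF3 held the widest differences between arrays while JUN and JUND lay within 1.5-fold of control under both agents. Each is the 250 bases before a RefSeq start on GRCh38.p14, printed 5′ to 3′ along the gene's strand, with motif matches in capitals. FOS lies at chr14:75278578-75278827, plus strand. FOSB lies at chr19:45467746-45467995, plus strand. The first of the annotated ATF3 starts lies at chr1:212565157-212565406, plus strand. A second annotated ATF3 start, with its window at chr1:212614768-212615017, plus strand, is not printed. Which start the probed ATF3 transcripts use was not examined. JUN lies at chr1:58784048-58784297, minus strand. JUND lies at chr19:18281623-18281872, minus strand.
FOS: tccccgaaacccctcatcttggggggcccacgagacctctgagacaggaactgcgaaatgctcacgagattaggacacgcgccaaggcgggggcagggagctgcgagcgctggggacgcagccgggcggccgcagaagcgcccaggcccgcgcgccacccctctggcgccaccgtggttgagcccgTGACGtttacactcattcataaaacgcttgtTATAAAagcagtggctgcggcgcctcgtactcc
FOSB: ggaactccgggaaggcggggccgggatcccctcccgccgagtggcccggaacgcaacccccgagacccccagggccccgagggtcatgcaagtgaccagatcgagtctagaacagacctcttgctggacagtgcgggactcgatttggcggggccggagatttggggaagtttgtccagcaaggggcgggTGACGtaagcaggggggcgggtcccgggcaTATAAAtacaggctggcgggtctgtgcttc
ATF3 start 1: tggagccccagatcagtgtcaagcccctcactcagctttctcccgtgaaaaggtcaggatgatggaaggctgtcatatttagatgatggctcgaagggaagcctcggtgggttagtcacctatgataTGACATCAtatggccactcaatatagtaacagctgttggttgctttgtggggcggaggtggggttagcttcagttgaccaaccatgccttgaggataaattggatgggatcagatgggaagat
JUN: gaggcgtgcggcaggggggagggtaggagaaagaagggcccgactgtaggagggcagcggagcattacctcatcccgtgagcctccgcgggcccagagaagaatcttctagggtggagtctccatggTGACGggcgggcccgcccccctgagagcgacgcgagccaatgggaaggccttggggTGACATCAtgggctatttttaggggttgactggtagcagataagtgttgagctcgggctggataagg
JUND: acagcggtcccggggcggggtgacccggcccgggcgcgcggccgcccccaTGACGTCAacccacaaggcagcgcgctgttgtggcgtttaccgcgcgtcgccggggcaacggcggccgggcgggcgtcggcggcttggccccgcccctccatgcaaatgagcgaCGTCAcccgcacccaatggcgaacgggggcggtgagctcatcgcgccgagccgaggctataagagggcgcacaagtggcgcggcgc

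The capitals in FOS and FOSB mark a CRE core (TGACG) followed by a TATA box (TATAAA). In FOS the core spans positions -64 to -60 from the start and the TATA box -33 to -28, and in FOSB they span -60 to -56 and -30 to -25. At the first ATF3 start the capitals mark TGACATCA, the JUN-type TRE, at -123 to -116. In JUN the same 8 letters stand at -67 to -60 beside a core at -123 to -119. JUND held the full CRE, TGACGTCA, at -200 to -193, which contains 2 overlapping cores, and a further core at -86 to -82. Entries were at hand for 8 members with 9 promoters, and FOSL1 and BATF3 had none. Searched on both strands, a core (TGACG or CGTCA) was in 6 of these 9, against 21.2% of all 35116 RefSeq promoters of the same length. The JUN-type TRE (TGACATCA or TGATGTCA) was in 2 of 9, against 2.37% of all promoters, and the full CRE in 1 of 9, against 1.65%. A TATA box (TATAAA or TTTATA) was in 4 of 9, against 10.7%. The matches in FOS, FOSB and JUNB lay near the start, while that of the second ATF3 start lay at -230 to -225. The TRE proper (TGACTCA or TGAGTCA) was in 0 of 9, against 4.2%, and the CArG box of serum response factor, searched by its consensus, in 0 of 9, against 1.16%. These are matches of letters in a fixed window, and binding at them was not measured. Elements more than 250 bases upstream were not searched, so a count of 0 does not show that a gene lacks the element.

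**Figure D1:**
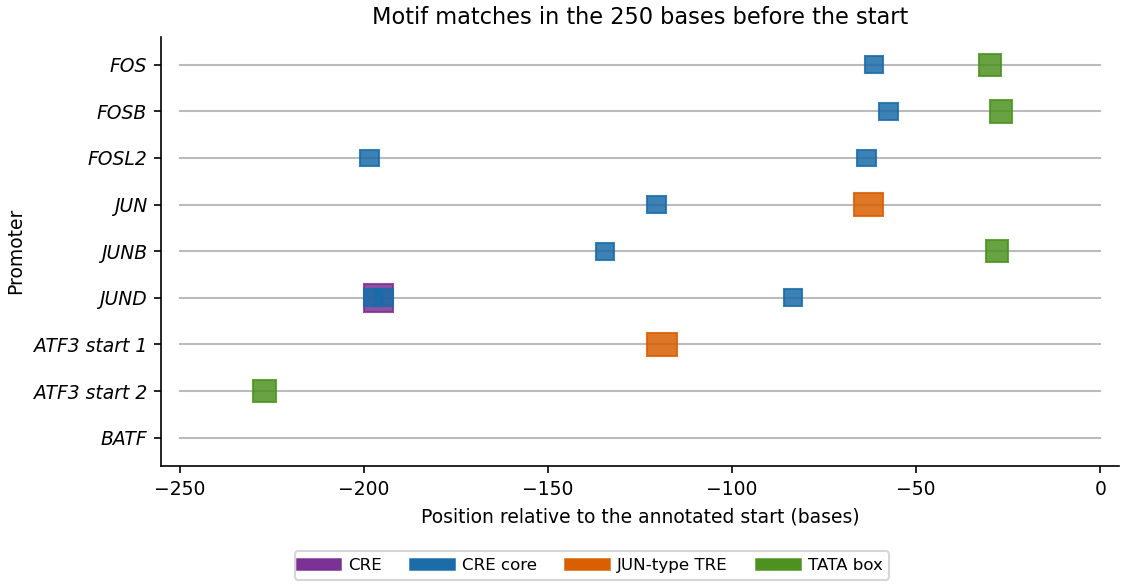
Motif matches in the 250 bases before the start of 9 member promoters. The horizontal axis is the position relative to the annotated start in bases, each row is a promoter, and coloured blocks are matches on either strand. FOS, FOSB and JUNB have a TATA box near the start, JUN and the first ATF3 start share the JUN-type TRE, and BATF has no match.

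Of the members, ATF3, FOSB and FOS stood highest against control. A gene is called higher or lower here when its difference reached 1.5-fold, provided that 1 or both of the arrays compared had its probe well above background. Differences were taken after each array had been scaled to its 75th percentile, while the intensities given are unscaled. Cantharidin gave 4 of 10 members called higher (FOS, FOSB, FOSL2 and ATF3) and 0 called lower, where 27.5% of 16644 genes were called higher and 34.1% lower. Okadaic acid gave 5 of 9 members higher (the same 4 genes and FOSL1) and 0 lower, where 28.1% of 16166 genes were called higher and 28.8% lower. The median log2 difference of the members was 0.24 under cantharidin and 0.66 under okadaic acid, beside medians of -0.16 and 0.01 over all genes. Both comparisons used the same control array, so their results are not independent of each other. The RNA came from whole cultures, so a smaller share of cells carrying a transcript and less of it per cell cannot be told apart.

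**Figure D2:**
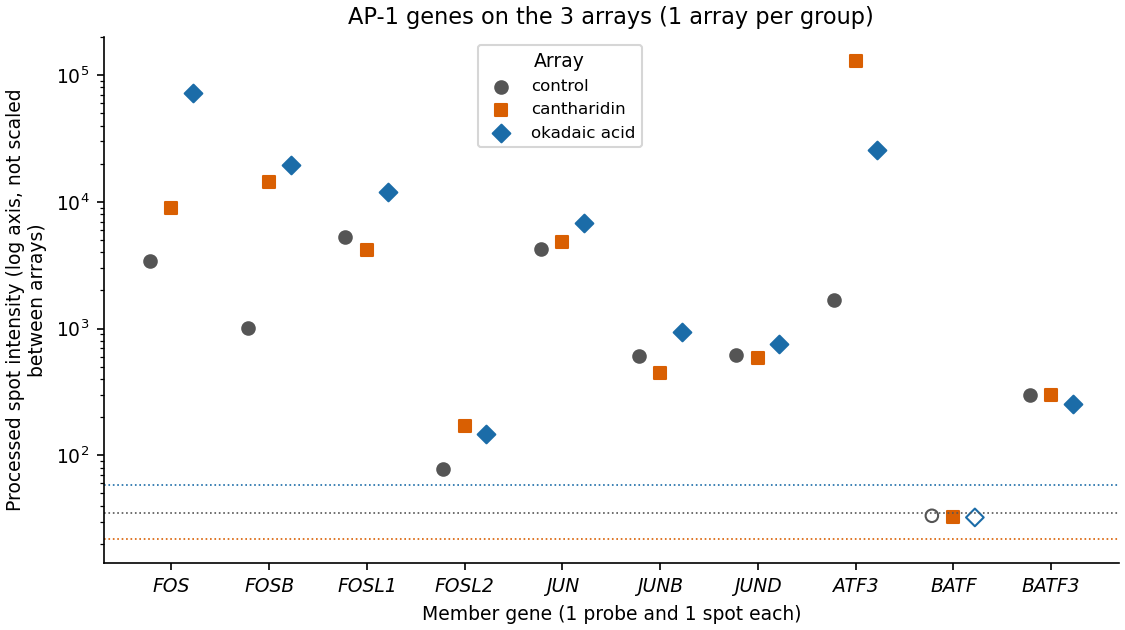
Processed intensity of the 10 members on a log axis, not scaled between arrays, with 1 symbol per array. Filled symbols were well above background, open ones were not, and dotted lines mark the lowest intensity of any probe well above background on the array of that colour. FOS, FOSB and ATF3 spread over more than a factor of 10, and BATF alone lies at the background.

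The 4 FOS proteins are the partners that need a JUN protein to bind DNA. FOS, the founding member, had intensities of 3434 in control, 8879 under cantharidin and 72510 under okadaic acid. It was therefore lowest in control and by far highest under okadaic acid. Cantharidin gave a log2 difference of 1.51 ± 0.087 (2.85-fold higher) and okadaic acid one of 4.14 ± 0.076 (17.7-fold higher). Among genes well above background on both arrays of a comparison, FOS ranked 1641 of 14900 from the top under cantharidin and 77 of 14428 under okadaic acid.

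FOSB, whose protein lasts longer than FOS in its spliced short form, had an intensity of 1009 in control, 14366 under cantharidin and 19690 under okadaic acid. Both treated arrays lay far above control and near each other. Against control, the log2 difference came to 3.97 ± 0.088 (15.7-fold) with cantharidin and 4.03 ± 0.076 with okadaic acid (16.4-fold). FOSB ranked 104 of 14900 and 91 of 14428 in these comparisons. Between the treated arrays it differed by 0.06 ± 0.088 on the log2 scale, less than the spot noise.

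FOSL1, which encodes FRA-1, a FOS protein maintained by ERK signalling in many carcinomas, had intensities of 5253, 4205 and 11863. Only the okadaic acid array lay apart. Its log2 difference was 0.92 ± 0.069 under okadaic acid (1.89-fold higher) and -0.18 ± 0.087 under cantharidin, which is within 1.5-fold.

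FOSL2, which encodes FRA-2, was dim, with intensities of 77.4, 171 and 146, or 2.21, 7.80 and 2.52 times the lowest intensity of a probe well above background on each array. The cantharidin array was the highest of the 3. It gave a log2 difference of 1.28 ± 0.198 (2.43-fold) and okadaic acid one of 0.66 ± 0.212 (1.58-fold), so the latter lay close to the threshold. It fell within 1.5-fold when arrays were scaled to their median (0.54), quantile normalized (0.55) or corrected by the normexp background model (0.28). Its cantharidin difference was 0.72 with normexp and 1.62 with the deposited table, still called higher. The FOS proteins together had 3 of 4 genes higher under cantharidin, where 27.5% of all genes were, and 4 of 4 under okadaic acid, where 28.1% of all genes were, or 3 of 4 where FOSL2 was within 1.5-fold.

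The JUN proteins gave a narrower range. JUN, the common partner of the FOS proteins and a direct substrate of JNK, had intensities of 4231, 4809 and 6858. Against control, the log2 difference came to 0.32 ± 0.084 (1.25-fold) with cantharidin and 0.44 ± 0.065 with okadaic acid (1.36-fold). Both exceed the spot noise and neither reached 1.5-fold. JUNB, which is often a weaker activator that can oppose JUN, had intensities of 606, 448 and 938, and cantharidin gave a log2 difference of -0.30 ± 0.086 and okadaic acid one of 0.37 ± 0.078. The control value lay between those of the treated arrays.

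JUND, the member kept at a steady level in most cells, had intensities of 617, 585 and 763. Cantharidin gave a log2 difference of 0.06 ± 0.094 and okadaic acid one of 0.05 ± 0.079, both smaller than the spot noise. Of the 3 JUN genes, 0 were thus called under either agent, with log2 differences of -0.30 to 0.32 under cantharidin and 0.05 to 0.44 under okadaic acid. Among all genes 27.5% were called higher and 34.1% lower under cantharidin, and 28.1% and 28.8% under okadaic acid. Many other genes were therefore also not called, and 3 genes are few. Without scaling between arrays, JUN (0.70) and JUNB (0.63) passed 1.5-fold under okadaic acid.

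ATF3, a stress-induced factor that often acts as a repressor, had the widest range of the members by its brightest probe. That probe, A_23_P34915, was the brightest over the 3 arrays together, so the treated arrays entered its choice. On the control array alone A_33_P3214096 was brighter, at 2619, and it lay within 1.5-fold under both agents. A_23_P34915 had intensities of 1688 in control, 130202 under cantharidin and 25723 under okadaic acid. Cantharidin was the highest and control the lowest. Against control, the log2 difference came to 6.41 ± 0.082 (84.9-fold higher) with cantharidin and 3.67 ± 0.072 with okadaic acid (12.8-fold higher). By this probe ATF3 ranked 6 of 14900 genes from the top under cantharidin and 126 of 14428 under okadaic acid.

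The ATF3 probes did not all move alike. Probe A_24_P33895, assigned to the same transcript NM_001040619 as the brightest probe A_23_P34915, had intensities of 75.5, 5705 and 689, with log2 differences of 6.38 under cantharidin and 2.94 under okadaic acid. Probe A_33_P3214105, assigned to NM_001674, had intensities of 440, 4042 and 770, with log2 differences of 3.34 and 0.55, so it passed 1.5-fold under cantharidin alone. The order of the 3 arrays was the same for these 3 probes. Probe A_33_P3214096, also assigned to NM_001040619, had intensities of 2619, 2143 and 2250, with log2 differences of -0.15 and -0.47, both within 1.5-fold. It was well above background on every array, as were the other 3, so its values were not at the floor. Where on the transcripts these probes lie was not examined. Taking the median over the probes gave 4.86 for ATF3 under cantharidin and 1.74 under okadaic acid, which were still called higher.

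**Figure D3:**
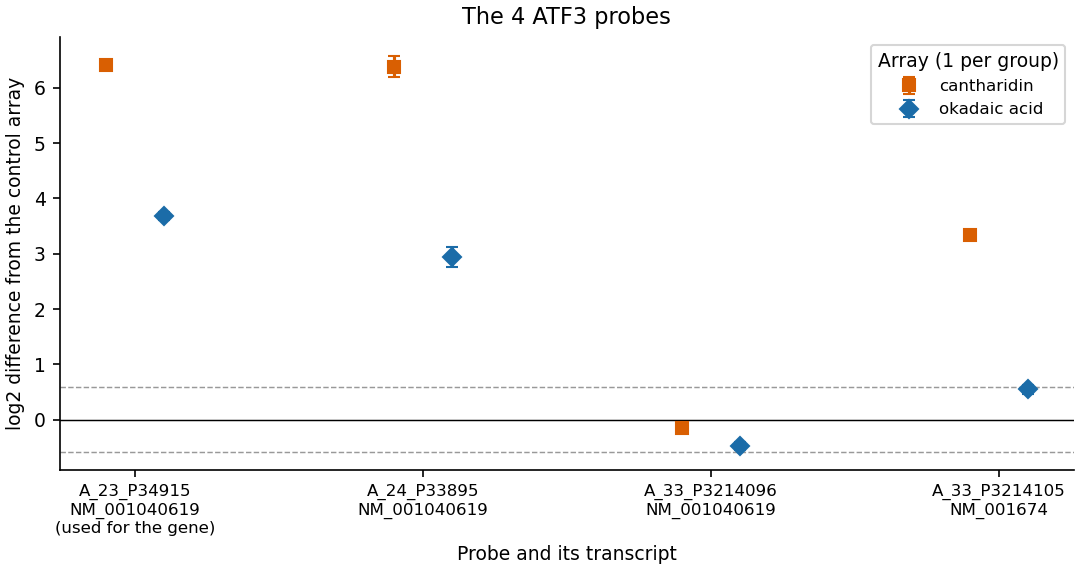
Log2 difference of each ATF3 probe from the control array, after scaling each array to its 75th percentile, with the transcript each probe is assigned to. Error bars are spot noise (SD), mostly smaller than the symbols, and dashed lines mark 1.5-fold. Probes A_23_P34915, A_24_P33895 and A_33_P3214105 lie above 3 under cantharidin and lower under okadaic acid, while A_33_P3214096 lies within the dashed lines for both.

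BATF and BATF3 encode short bZIP proteins that lack an activation domain and are best known from lymphocytes and dendritic cells. BATF had intensities of 33.3, 32.7 and 32.4 and was well above background only on the cantharidin array, whose background limit was the lowest. After scaling, the cantharidin array stood at least 1.03-fold over control. The measured log2 difference of 0.11 ± 0.424 was smaller than its spot noise, and it was -0.01 with normexp and -0.03 without scaling. Under okadaic acid BATF was not compared with control, since both of those arrays were below background. BATF3 had intensities of 298, 302 and 252. Cantharidin gave a log2 difference of 0.16 ± 0.110 and okadaic acid one of -0.50 ± 0.115, both within 1.5-fold. With the deposited normalized table, median scaling or quantile normalization, BATF3 passed 1.5-fold as lower under okadaic acid.

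The treated arrays were then compared with each other, at the dose and time that the labels give for both. Under okadaic acid against cantharidin, 3 of 10 members were called higher (FOS, FOSL1 and JUNB) and 3 lower (ATF3, FOSL2 and BATF3), where 29.5% of 16200 genes were called higher and 22.3% lower. FOS was 6.22-fold higher under okadaic acid, a log2 difference of 2.64 ± 0.099, and ranked 209 of 14604 genes. ATF3 was 6.65-fold lower, a log2 difference of -2.73 ± 0.087, and ranked 109 of 14604 from the bottom. These were the widest differences of the members between the treated arrays, and they lay in opposite directions. The probes A_24_P33895 and A_33_P3214105 of ATF3 had log2 differences of -3.44 and -2.78 in the same comparison, and A_33_P3214096 one of -0.32.

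The other differences between the treated arrays were smaller. FOSL1 was 2.15-fold higher under okadaic acid (spot noise 0.093 on the log2 scale) and JUNB 1.59-fold higher (0.67 ± 0.096). FOSL2 was 1.53-fold lower (-0.62 ± 0.178) and BATF3 1.57-fold lower (-0.65 ± 0.127). JUNB, FOSL2 and BATF3 were all near the threshold. JUNB came within 1.5-fold with median scaling (0.52) or normexp (0.53), FOSL2 with normexp (-0.44) or without scaling (-0.22), and BATF3 with normexp (-0.52) or without scaling (-0.26). FOSB, JUN and JUND differed by 0.06, 0.12 and -0.01 on the log2 scale. The median over the members was 0.02, with BATF at its measured intensity, beside 0.13 over all genes.

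**Figure D4:**
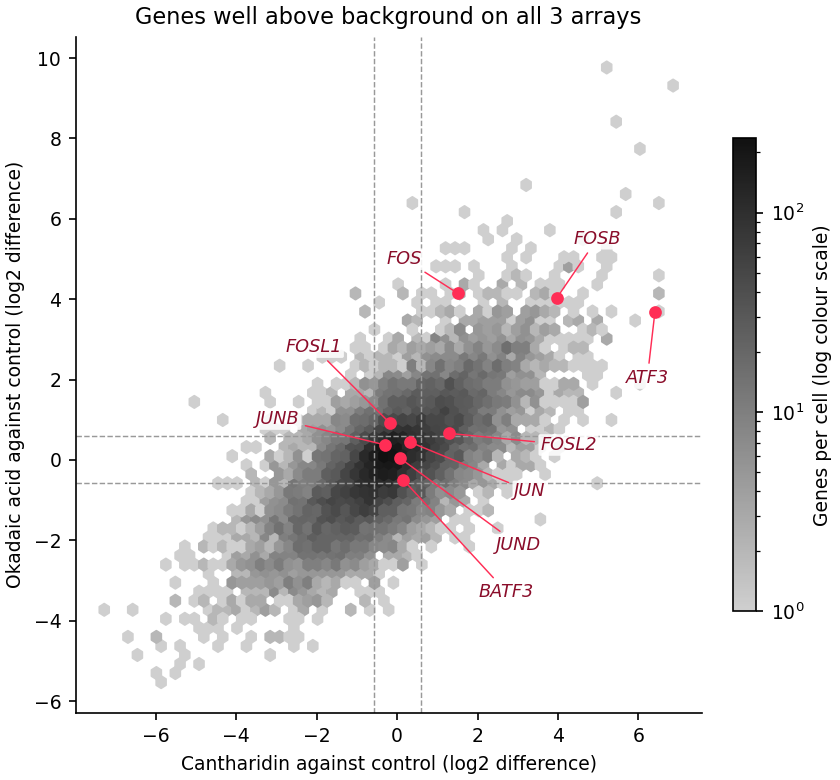
Log2 difference from control under cantharidin (horizontal axis) and okadaic acid (vertical axis) for genes well above background on all 3 arrays, shaded by their number per cell on a log colour scale, with 9 members in red and dashed lines at 1.5-fold. Both axes share the control array, and BATF is not drawn because it was below background on the control and okadaic acid arrays. FOSB and ATF3 are high on both axes, FOS mainly on the vertical one, and the JUN genes lie at the centre.

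For FOS, FOSB, JUN and ATF3, the genes with the most similar pair of differences from control were sought among the 14213 genes well above background on all 3 arrays. Likeness was the distance between the pairs of log2 differences, and rests on 3 arrays only. Nearest to FOS were SCARNA16 (1.51 under cantharidin and 4.10 under okadaic acid), SLF2 (1.53 and 4.06) and the chemokine gene CXCL1 (1.22 and 4.09), at distances of 0.05, 0.09 and 0.29. Nearest to FOSB were ZNF416, LCMT2 and CCDC142, at 0.11, 0.25 and 0.26. Nearest to JUN were NRBP1, PDCD4-AS1 and MSLN, at 0.01, 0.01 and 0.02. ATF3 had no gene as close, with KRTAP4-2 (6.56 and 4.06), TM4SF19 (6.55 and 4.10) and ZGLP1 (6.01 and 3.42) at 0.41, 0.45 and 0.48.

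The genes around AP-1 were read in 5 lists, described by counts and medians beside those of all genes, whose medians were -0.16 under cantharidin and 0.01 under okadaic acid. Among the upstream factors and kinases, which phosphorylate the AP-1 proteins or switch on their genes, 6 of 17 were called higher and 4 lower under cantharidin, and 5 of 17 higher and 4 lower under okadaic acid. These are shares of 35.3% and 23.5% under cantharidin, beside 27.5% and 34.1% of all genes, and of 29.4% and 23.5% under okadaic acid, beside 28.1% and 28.8%. The list medians were 0.07 and 0.12 on the log2 scale. MEF2A, a factor that binds the JUN promoter, had log2 differences of 2.61 under cantharidin and 2.26 under okadaic acid. RPS6KA3, the ERK-activated kinase RSK2, had 2.46 and 1.98, and its second probe had 1.16 and 1.24. MAP2K4, a kinase that activates JNK, had 1.64 and 0.63. The second probe of MAP2K4 had 0.87 and 2.00, so its probes order the agents differently. MAPK3, which encodes the kinase ERK1, had -1.49 and -1.69, and ELK3, an ETS factor of the serum response, had -0.74 and -0.68. Without scaling, ELK3 came within 1.5-fold under okadaic acid (-0.43), and MAP2K4 did so with median scaling, where its value was the lowest of the alternatives (0.51), or with normexp. The JNK gene MAPK8 had no matched probe.

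Of 16 other bZIP partners compared under cantharidin, 10 were called higher and 3 lower, with a median of 1.32, and of 15 compared under okadaic acid, 9 were higher and 2 lower, with a median of 0.77. Among all genes 27.5% were higher and 34.1% lower under cantharidin, and 28.1% and 28.8% under okadaic acid. CREB5, a CRE-binding partner of JUN, had intensities of 296, 5585 and 9427 and log2 differences of 4.37 and 4.74. BATF2, the third BATF gene, had intensities of 49.8, 1005 and 602 and log2 differences of 4.47 and 3.34. BATF2 was thus the BATF gene that stood far above control under both agents. Its control intensity was near the lowest of any probe well above background on that array (35.0). With normexp its log2 differences were 3.12 and 2.03, still called higher. NFE2L3, of the NRF family, had -3.97 and -1.91. Opposite calls under the agents were seen for ATF1, which was 2.01-fold lower with cantharidin and 2.14-fold higher with okadaic acid, and for DDIT3, the stress factor CHOP, at log2 differences of 1.78 and -0.61. The okadaic acid value of DDIT3 lay at the threshold and was within 1.5-fold with normexp, scaling to probes detected on all arrays, quantile normalization, no scaling or the deposited table.

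The turnover regulators, which destroy AP-1 proteins or the AU-rich mRNAs of immediate early genes, gave counts that rest on few genes. Under cantharidin 3 of 10 were called higher and 5 lower, with a median of -0.43, and under okadaic acid 6 of 10 were higher and 3 lower, with a median of 0.72. Among all genes 27.5% were higher and 34.1% lower under cantharidin, and 28.1% and 28.8% under okadaic acid. FBXW7 and COP1, which mark JUN for the proteasome, had log2 differences of 1.48 and 1.98 under cantharidin and of 3.21 and 1.34 under okadaic acid. ZFP36L2, which binds AU-rich elements and promotes decay, had 2.72 and 4.40. ELAVL1, the stabilising protein HuR, had -1.67 and -0.88. ZFP36L1, a close relative of ZFP36L2, was called in opposite directions, with -1.56 and 1.40, as was HNRNPD, the decay factor AUF1, with -0.62 and 0.70. The second probe of HNRNPD had -2.58 and 0.38. The cantharidin call of HNRNPD was lost with scaling to probes detected on all arrays, quantile normalization or the deposited table, and its okadaic acid call with median scaling or the median over its probes.

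Among known AP-1 target genes, 12 of 22 were called higher and 5 lower under cantharidin, with a median of 1.16, and 14 of 23 higher and 3 lower under okadaic acid, with a median of 1.31. Among all genes 27.5% were higher and 34.1% lower under cantharidin, and 28.1% and 28.8% under okadaic acid. Some genes of the list, MMP3, MMP10 and MMP13 among them, entered through a treated array alone, being below background in control. Among genes well above background on all 3 arrays, 10 were higher under cantharidin with a median of 0.80, and 11 under okadaic acid with a median of 0.94. The numbers lower stayed at 5 and 3. Over all genes restricted in the same way the medians were -0.17 and 0.04, while the shares given above were not so restricted. The median under cantharidin was 0.70 with no filter and 0.76 with normexp, and the 3 lower under okadaic acid became 1 with scaling to probes detected on all arrays, quantile normalization, no scaling or the deposited table. CXCL8, PLAUR and TIMP1 of this list are also among the genes that the study itself singled out on these arrays, so the list is not independent of them. CXCL8, the chemokine interleukin-8, had intensities of 315, 13626 and 37772 and log2 differences of 5.57 and 6.65. The cytokine gene IL11 had 3.82 and 3.65, and HBEGF, a ligand of the EGF receptor, had 4.37 and 3.05. CD44, a hyaluronan receptor, had -1.21 and -2.35, TGFB1 had -0.72 and -0.60, and the integrin gene ITGA2 was called in opposite directions, with -0.73 and 1.28. TGFB1 lost its okadaic acid call with normexp, scaling to probes detected on all arrays, quantile normalization, no scaling or the deposited table, and ITGA2 its cantharidin call with normexp (-0.30). The metalloproteinase gene MMP10, chosen after its values were seen, was below background in control and at intensities of 2084 and 2078 in the treated arrays, at least 65.5-fold and 49.7-fold higher.

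The other immediate early genes, which share the rapid induction of FOS, had 12 of 22 called higher and 8 lower under cantharidin, with a median of 0.89, and 18 of 23 higher and 1 lower under okadaic acid, with a median of 1.57. Among all genes 27.5% were higher and 34.1% lower under cantharidin, and 28.1% and 28.8% under okadaic acid. Between the treated arrays, 16 of 23 were higher under okadaic acid and 0 lower, with a median of 1.26, beside 29.5% higher and 22.3% lower among all genes. EGR2, EGR3 and EGR4 entered through 1 or both treated arrays, being below background in control. Among genes well above background on all 3 arrays, 10 were higher under cantharidin, 14 under okadaic acid and 12 between the treated arrays, with medians of 0.87, 1.31 and 1.02. Over all genes restricted in the same way the medians were -0.17, 0.04 and 0.17, while the shares given above were not so restricted. Of these genes CCN1, CCN2, DUSP1, IER3, KLF6, MYC and NR4A2 were lower under cantharidin, and MYC under okadaic acid. ARC, a synaptic immediate early gene, had intensities of 94.6, 9991 and 78834 and log2 differences of 6.86 and 9.45. EGR1, a zinc finger factor induced along with FOS, had 6.42 and 6.45, and the small GTPase gene RHOB, which the study also singled out on these arrays, had 3.07 and 3.27. MYC had intensities of 88284, 5889 and 18519 and log2 differences of -3.77 and -2.51. NR4A2, an orphan nuclear receptor, had -2.51 and 1.48, IER3 had -1.42 and 1.07, and CCN1, a matrix protein gene, had -1.84 and 0.93, each called lower under cantharidin and higher under okadaic acid.

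**Figure D5:**
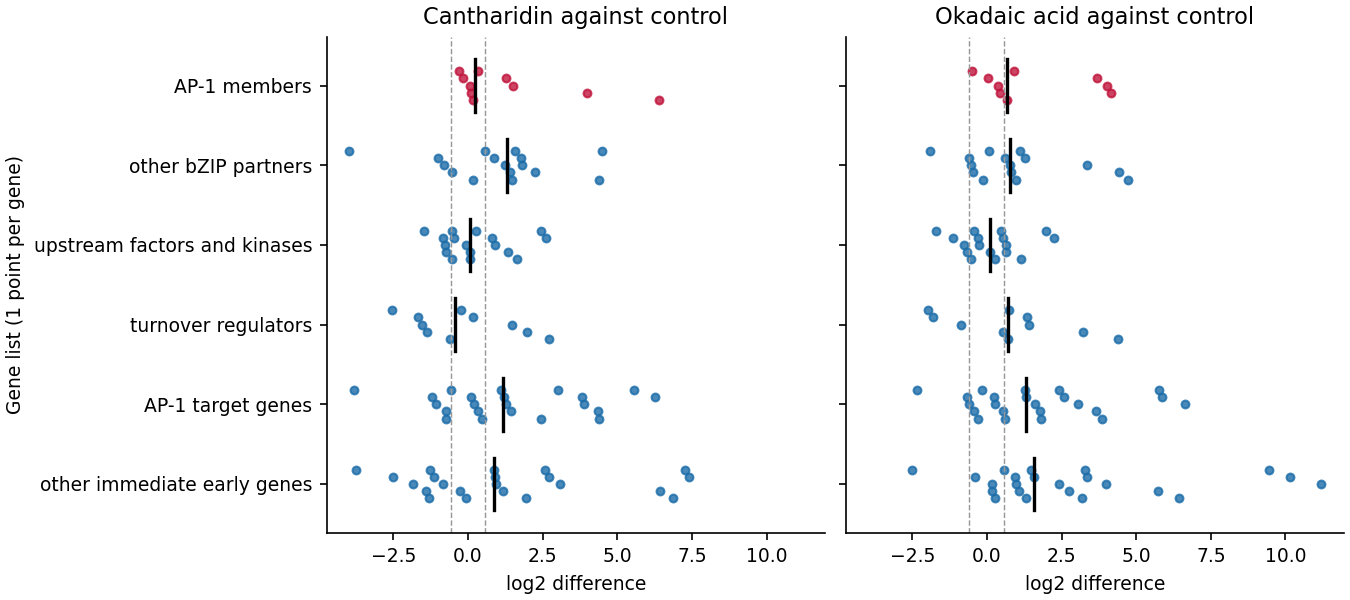
Log2 difference from control of the AP-1 members (red) and of the genes in the 5 other lists (blue), with 1 point per gene, the median as a black bar and dashed lines at 1.5-fold. Genes below background on 1 array are drawn at their measured intensity. The medians of the bZIP partners, AP-1 target genes and other immediate early genes lie above 0 in both panels, and that of the turnover regulators lies below 0 under cantharidin and above 0 under okadaic acid.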

How the data were processed

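Total RNA of 3 PANC-1 samples, grouped by their titles, was measured on 3 Agilent one-colour arrays. The authors deposited the scanner's spot intensity made with Feature Extraction 11.0.1.1, with probe annotation on hg19. Per the file headers, the processed intensity was background-subtracted and detrended for position, without scaling between arrays. Other deposited columns flagged spots as outliers, as saturated or as well above background. A second file deposited by the authors held normalized log2 values, used as an alternative. How it was made is not given in the sources used here. Its column medians were 7.74 to 7.75, and each column correlated at 0.998 or more with its array (Pearson r over probes, on log2 intensity). All arrays came from 1 slide and 1 scan, and position on the slide cannot be told apart from group. The depth of arrays is not a count, and their number limits the precision.

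Per probe, the log2 intensity was averaged over spots that carried no outlier flag, and each array's 75th percentile was subtracted (intensity 784 in control, 713 under cantharidin, 936 under okadaic acid). Accessions were matched without version to RefSeq genes of GRCh38.p14, for names and neighbours only. A gene was represented by its brightest probe over the 3 arrays, and calls were made at 1.5-fold. Where 1 array was not well above background, the fold was given as a lower bound against the lowest signal well above background on that array, or the dim signal itself if higher. Spot noise was the median SD of the 50 probes with 10 spots nearest in intensity, combined over both arrays as the root of the summed squares.

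The members, lists and rules were chosen with earlier results of these data known. All members were named with every probe. From each list, up to 3 genes with the largest mean difference each way were named among those passing 1.5-fold the same way under both agents and well above background on all arrays, and up to 3 passing it in opposite directions. A few genes that this rule names are not reported here. The code was tested on simulated data. Work used Python 3.11.15, numpy 2.4.6, pandas 2.3.3, R 4.3.3 and limma 3.58.1 (normexp, offset 50). Quantile normalization was coded in Python. The 11 alternatives were median scaling, scaling to probes detected on all arrays, quantile normalization, no scaling, normexp, no filter, a filter on all 3 arrays, dim signals set to the array's floor, a 2-fold threshold, the median over a gene's probes and the deposited table.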

Additional observations from a re-analysis of the deposited data

How the results depend on the processing

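No paired analysis was possible because each group had 1 array. Under the 11 alternatives no difference of a member that was called at 1.5-fold changed its direction, while the members' median between the treated arrays changed its sign with median scaling. The calls of ATF3, FOS and FOSB against control held under all 11, with log2 ranges of 4.86 to 6.48, 1.37 to 1.61 and 3.83 to 4.04 under cantharidin, and of 1.74 to 3.93, 4.02 to 4.40 and 3.91 to 4.29 under okadaic acid. Between the treated arrays FOS ranged from 2.48 to 3.03 and ATF3 from -2.88 to -2.34. No alternative chose the probe of a gene by its control signal.

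The members' median under cantharidin (0.24) was 0.10 without scaling, 0.34 with quantile normalization and 0.35 with the deposited table. Their median under okadaic acid (0.66) was 0.47 with normexp, 0.54 with median scaling, 0.55 with quantile normalization, 0.55 with no filter, 0.74 with scaling to probes detected on all arrays and 0.92 without scaling. A 2-fold threshold left 3 members higher under okadaic acid in place of 5. BATF3 made 1 member lower there with the deposited table, 1 with median scaling and 1 with quantile normalization. Between the treated arrays the median (0.02) was -0.13 with median scaling and 0.42 without scaling, and 1 member in place of 3 was lower with normexp, 1 without scaling and 1 at 2-fold. The median of all genes moved with the scaling, lying between -0.30 and -0.09 for cantharidin and between -0.11 and 0.26 for okadaic acid. For MAP2K4 the difference between the treated arrays (-1.01) became 0.06 with the median over its probes. The cause of these moves was not tested. FOSL2 and BATF lay near background, where intensity limits the precision most.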

Other observations

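Of the genes placed beside members on the RefSeq map, JDP2, the only protein-coding gene between FOS and BATF and a bZIP repressor of AP-1, had an intensity of 300 in control, 500 under cantharidin and 861 under okadaic acid. Against control, the log2 difference came to 0.88 with cantharidin and 1.27 with okadaic acid, both called higher. GARIN4, which lies between ATF3 and BATF3, was not well above background on the okadaic acid array and had a log2 difference of 0.08 under cantharidin.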
